A study of Mus musculus with 6 samples.

Results

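The 10 genes described here make up the main line of MHC class I antigen presentation: the heavy chains H2-K1, H2-D1 and H2-T23, the light chain B2m, the peptide transporter subunits Tap1 and Tap2, the peptide editor Tapbp, the immunoproteasome subunits Psmb8 and Psmb9, and the transactivator Nlrc5. They were chosen by gene symbol, and all 10 were found among the 25755 genes of the table. Bulk RNA sequencing was performed to ask how optic nerve crush (ON-CR) changes the nerve in which tumor-associated microglia and macrophages make the chemokine Ccl5. The optic nerves of 6 Nf1flox/flox; hGFAP-Cre mice were sequenced, of which 3 had undergone sham surgery (mice 1, 2 and 3) and 3 bilateral ON-CR (mice 4, 5 and 6). Surgery was at 6 weeks and analysis at 12 weeks of age, which the labels give as 3 months. Both groups carried 2 floxed Nf1 alleles and Cre recombinase under the human GFAP promoter, which deletes Nf1 in neuroglial progenitors and their descendants, so neither group is wild type. Each library is named by 1 mouse in the labels. Values are gene counts that the authors scaled by median normalization, called normalized counts below.

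Class I molecules show fragments of a cell's own proteins at its surface. The proteasome cuts proteins into peptides, the transporter TAP carries the peptides into the endoplasmic reticulum, tapasin (encoded by Tapbp) and chaperones help to load them, and the loaded heavy chain leaves for the surface with beta-2 microglobulin. CD8+ T cells and NK cells read these complexes. In the healthy central nervous system the pathway is known to be low in neurons and higher in microglia and endothelial cells, and interferon is its best known inducer. In bulk RNA, a change in the number of cells of a type and a change in RNA per cell cannot be told apart.

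The libraries held 17414091 to 23621006 estimated reads, and the value of 1 read was 0.885 to 1.06, so 9 of the 10 genes lay far above the floor of 3 reads in each library and Nlrc5 had 33 to 128 reads. The nerve label fit its markers, since the oligodendrocyte gene Mbp and the astrocyte gene Gfap were abundant in every library. Libraries also stood apart within their groups. Mouse 6 had 12738 normalized counts of Jchain, which joins secreted immunoglobulins, against 12.6 to 372 in the other mice. Mice 3, 5 and 6 held 4579 to 7568 normalized counts of the airway gene Bpifa1, against 0 to 22.3 in mice 1, 2 and 4. Sex-linked transcripts also split the groups: Xist was at 2.14 to 30.9 in sham mice and 2708 to 6357 after ON-CR, and the Y-linked Ddx3y was at 1291 to 1645 in the sham mice and at 976, 4.19 and 0 in mice 4, 5 and 6. Surgery and sex-linked differences therefore cannot be told apart here. Mouse 4 was the only mouse high in both, with Xist at 2708 and Ddx3y at 976, and the cause was not tested.

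Most class I genes had higher mean levels after ON-CR, but the mice differed so widely that none of the 10 passed the test. The limma test gave 0 of 10 genes an adjusted p at or under 0.05, against 2.1% of all genes tested. At an unadjusted p at or under 0.05, 5 genes (H2-D1, H2-T23, B2m, Psmb8 and Nlrc5) were higher after ON-CR, against 7.37% of all genes. All 10 log2 fold changes were above 0, as were 52.8% over all genes, and 8 were above 0.5, as were 18.8% over all genes. The median log2 fold change was 0.76 for the 10 genes and 0.03 for all genes tested. Only B2m was higher in every ON-CR mouse than in every sham mouse, a pattern that 10.5% of all genes showed.

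**Figure D1:**
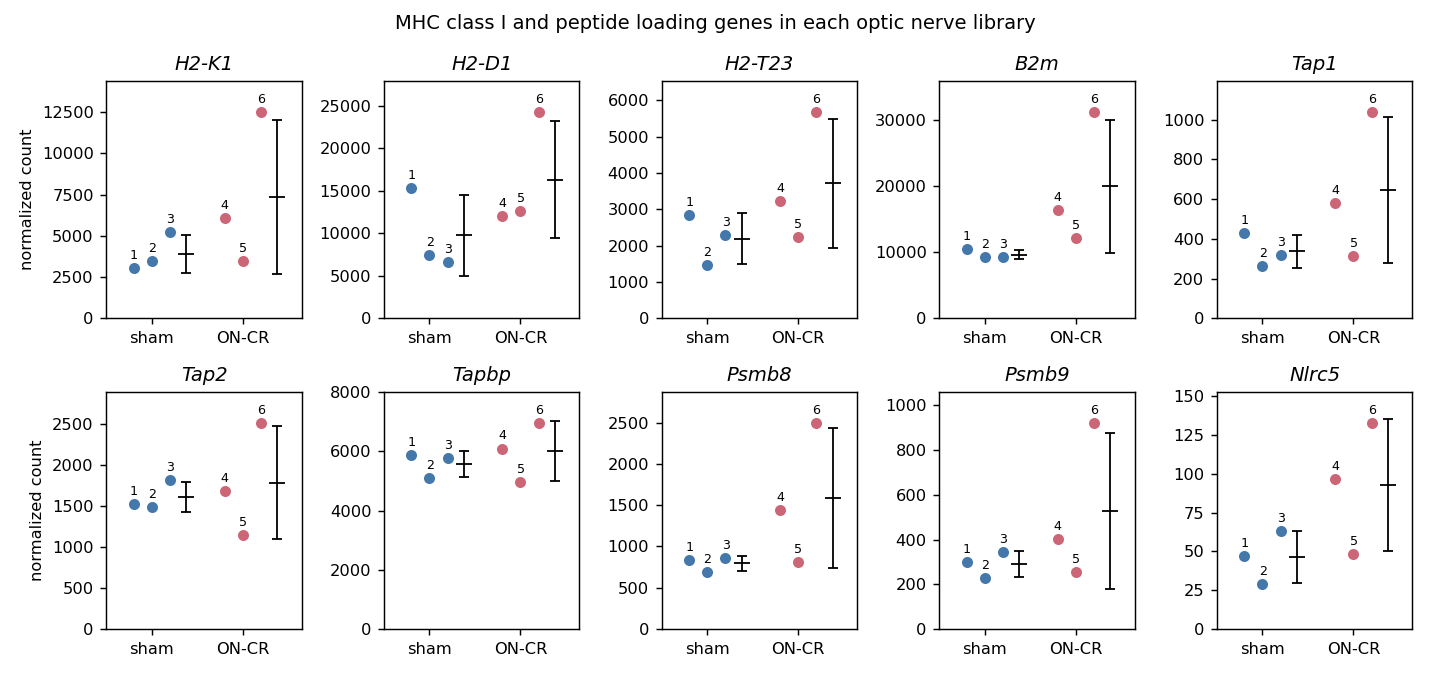
Normalized counts (linear axes from 0) of each of the 10 genes in sham mice 1 to 3 (blue) and ON-CR mice 4 to 6 (red), with the mean and SD of each group in black (n = 3). Mouse 6 is the highest point in all 10 panels, and B2m is the only gene whose 3 ON-CR points all lie above its sham points.

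The ON-CR mice differed widely from each other. Mouse 6 was the highest of the 6 mice for 10 of 10 genes, against 20.0% of all genes. Mouse 4 lay above every sham mouse for 8 of 10 genes, against 28.4% of all genes, with H2-D1 and Tap2 as the others. Mouse 5 lay above every sham mouse for 1 of 10 genes, B2m, against 32.0% of all genes. The median over the 10 genes of the log2 difference from the sham mean was 0.65 in mouse 4, -0.01 in mouse 5 and 1.61 in mouse 6, and it was 0.08, -0.24 and 0.12 in sham mice 1, 2 and 3. Mouse 5 was thus within the range of the sham mice, and mice 4 and 6 were above it.

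Leaving out mouse 5 or mouse 6 moved every fold change. Without mouse 5, which left 2 ON-CR mice, 4 of 10 genes passed an adjusted p of 0.05, against 3.32% of all genes, and the median log2 fold change of the 10 genes was 1.14. The 4 genes were Psmb8 (log2 fold change 1.26, limma adjusted p = 0.00992), B2m (1.23, adjusted p = 0.0149), Tap1 (1.23, adjusted p = 0.0294) and H2-K1 (1.20, adjusted p = 0.0466). Without mouse 6, which also left 2 ON-CR mice, the median was 0.36, none passed, the lowest adjusted p was 0.256, and the log2 fold changes of Tap2 and Tapbp were below 0 (-0.21 and -0.015). Whether a call is made thus turned on a single ON-CR library.

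**Figure D2:**
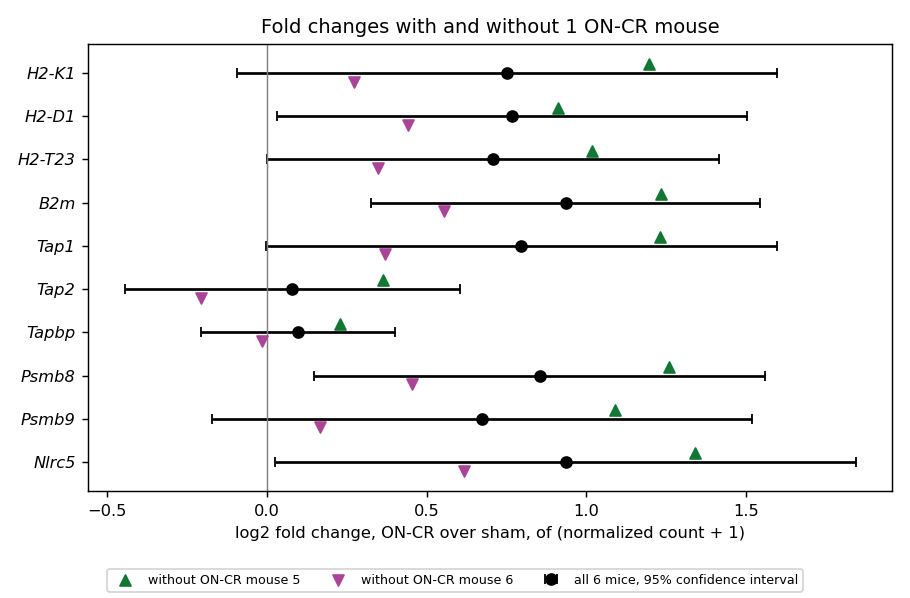
Log2 fold change of ON-CR over sham on the log2(normalized count + 1) scale for each gene, with its 95% confidence interval from limma over all 6 mice (black), and the value without ON-CR mouse 5 (green) or mouse 6 (purple). Every green point lies to the right of its purple point, and Tap2 and Tapbp cross 0 when mouse 6 is left out.

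Levels were compared between genes per kb of annotated exon, in sham mice. Exon length was taken over all annotated transcripts of a gene, from 860 bases for B2m to 8493 for Nlrc5. A gene with a shorter main transcript is understated by this measure, and the effect on the order was not tested. B2m was highest, with 11198 ± 823 normalized counts per kb (SD, n = 3), followed by H2-D1 with 3786 ± 1860. Tapbp (1538 ± 118) and H2-K1 (1331 ± 389) overlapped between mice and had no order. H2-T23 (759 ± 241), Tap2 (426 ± 47.2) and Psmb8 (235 ± 27.0) came next, without overlap between neighbours. Psmb9 (79.2 ± 16.1) and Tap1 (61.5 ± 15.3) overlapped, and Nlrc5 was lowest with 5.45 ± 1.98. The structural chains of the class I molecule were therefore far more abundant than the transporter subunit Tap1 or the transactivator. Exons of Tapbp share 904 bases with the antisense gene Gm19412, and exons of Tap2 share 533 bases with Gm15821 on the opposite strand, and the part of such reads in these levels was not tested. Within the transporter, which pairs 1 TAP1 with 1 TAP2 protein, Tap2 RNA was the more abundant per kb in each sham mouse.

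**Figure D3:**
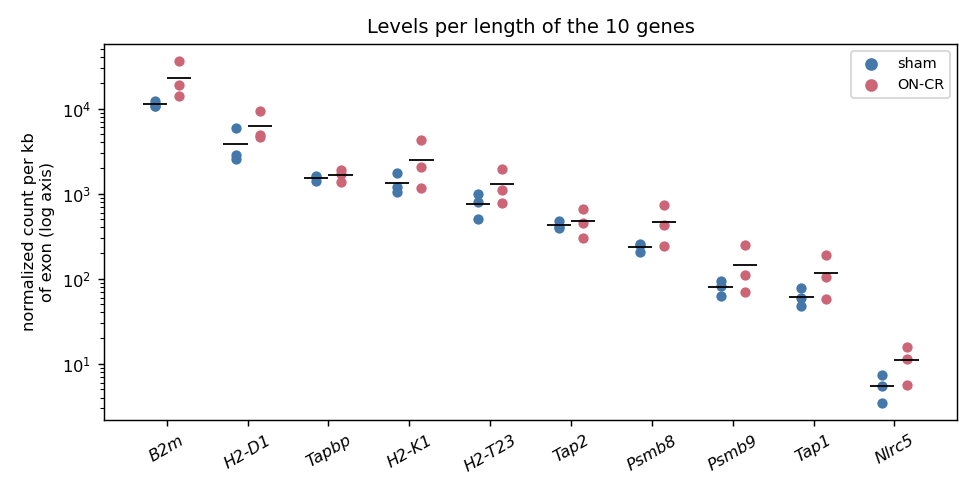
Normalized count per kb of annotated exon (log axis) of the 10 genes, ordered by sham mean, with 1 point per mouse and a black line at each group mean. B2m leads with a sham mean of 11198 and Nlrc5 closes with 5.45, and the order of the sham means spans about the whole axis while the groups overlap for every gene but B2m.

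H2-K1 (ENSMUSG00000061232.16, chr17:33996017-34000347, minus strand, GRCm38) and H2-D1 (ENSMUSG00000073411.11, chr17:35262730-35267499, plus strand) encode the classical heavy chains that present peptides to CD8+ T cells. H2-K1 had 3037, 3495 and 5204 normalized counts in sham mice 1, 2 and 3, compared with 6102, 3463 and 12513 in ON-CR mice 4, 5 and 6. Mouse 5 lay between sham mice 1 and 2, so the groups overlapped. The means were 3912 ± 1142 and 7359 ± 4654 (SD, n = 3), and the log2 fold change was 0.75 (SE 0.38, limma adjusted p = 0.375).

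H2-D1 had 15281, 7436 and 6575 normalized counts in sham mice 1, 2 and 3, against 12014, 12639 and 24284 in mice 4, 5 and 6 after ON-CR. Sham mouse 1 was above ON-CR mice 4 and 5, so here the overlap came from a high sham mouse and not from mouse 5. The means were 9764 ± 4798 and 16312 ± 6911 (SD, n = 3), and the log2 fold change was 0.77 (SE 0.33, limma adjusted p = 0.297).

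H2-T23 (ENSMUSG00000067212.8, chr17:36029773-36032855, minus strand) encodes Qa-1, a nonclassical heavy chain that the CD94/NKG2 receptors of NK cells recognize. It had 2837, 1456 and 2283 normalized counts in sham mice 1, 2 and 3, compared with 3226, 2246 and 5682 in ON-CR mice 4, 5 and 6. Mice 4 and 6 were above all sham mice and mouse 5 was not. The log2 fold change was 0.71 (SE 0.32, limma adjusted p = 0.320).

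The heavy chain genes are close copies of each other, so the counting may have divided reads among them. The longest run that the coding sequences of H2-K1 and H2-D1 share is shown because a read inside it cannot be assigned to either gene by its letters. It lies in exon 4 of both, in coding bases 738 to 828 of H2-K1 (chr17:33997343-33997433, minus strand) and 747 to 837 of H2-D1 (chr17:35265911-35266001, plus strand):
H2-K1 and H2-D1: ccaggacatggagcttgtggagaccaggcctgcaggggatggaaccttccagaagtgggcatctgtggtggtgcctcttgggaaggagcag
Of all 50-base words in their transcripts, H2-K1 shared 9.63%, H2-D1 12.8% and H2-T23 14.5% with transcripts of other genes, and B2m shared 0%. Words were matched on both strands. Among the other genes the share was highest for Tapbp with 23.2%, followed by Psmb8 with 11.9% and Tap2 with 11.6%. It was at most 4.19% for Psmb9, Tap1 and Nlrc5. Most words of the first 3 were shared with a gene that overlaps them on the opposite strand. These were 762 of 871 for Tapbp (Gm19412), 408 of 418 for Psmb8 (Gm20496) and 352 of 443 for Tap2 (Gm15821). The read length was not given in the sources used here, so the 50 bases are a working length.

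Within a library, the balance of the classical chains varied among mice more than between groups. The ratio of H2-D1 to H2-K1 was 5.03, 2.13 and 1.26 in sham mice 1, 2 and 3, against 1.97, 3.65 and 1.94 in mice 4, 5 and 6 after ON-CR. The exact permutation test gave p = 1. Mice 1 and 5 had the highest ratio, and they also had the lowest counts of H2-Q4, another heavy chain gene, with 45.8 and 67.6 against 143 to 618 in the other mice. The part of read division among copies in these values was not tested.

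A sum over the 18 heavy chain genes of the H2-K, H2-D, H2-Q, H2-T and H2-M series in the table does not depend on how reads were divided among these 18. It still depends on the division with copies outside the sum, such as Gm7030, Gm11127 and H2-Bl, which share 50-base words with H2-D1 or H2-T23. The sum was 23825, 14220 and 16849 normalized counts in sham mice 1, 2 and 3, compared with 24863, 20877 and 48492 in ON-CR mice 4, 5 and 6. Only mice 4 and 6 were above sham mouse 1. The log2 difference was 0.71 (exact permutation p = 0.2, two-sided), and 3 mice against 3 allow no p below 0.1. The sum of H2-K1 and H2-D1 alone gave 0.73 (exact permutation p = 0.3).

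B2m (ENSMUSG00000060802.8, chr2:122147686-122153083, plus strand) encodes beta-2 microglobulin, the light chain without which most class I heavy chains do not reach the surface. It had 10446, 9182 and 9264 normalized counts in sham mice 1, 2 and 3, against 16419, 12144 and 31183 in mice 4, 5 and 6 after ON-CR. The sham mice lay close together and every ON-CR mouse was above them. The means were 9631 ± 707 and 19915 ± 9989 (SD, n = 3). Its log2 fold change of 0.94 (SE 0.27, 95% confidence interval from 0.33 to 1.54) had the lowest adjusted p of the 10 genes in the limma test, 0.123, and the exact permutation p was 0.1, the smallest the design allows.

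The heavy chain sum was set against its light chain within each library, a ratio that needs no library scaling. Heavy chain counts per count of B2m were 2.28, 1.55 and 1.82 in sham mice 1, 2 and 3, compared with 1.51, 1.72 and 1.56 in ON-CR mice 4, 5 and 6. The groups overlapped, with sham mouse 1 highest, and the log2 difference was -0.22 (exact permutation p = 0.3).

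Tap1 (ENSMUSG00000037321.17, chr17:34187553-34197225, plus strand) and Tap2 (ENSMUSG00000024339.12, chr17:34203527-34216321, plus strand) encode the subunits of the peptide transporter. Tap1 had 428, 263 and 320 normalized counts in sham mice 1, 2 and 3, against 581, 314 and 1039 in mice 4, 5 and 6 after ON-CR. Mice 4 and 6 were above all sham mice, and the log2 fold change was 0.80 (SE 0.36, limma adjusted p = 0.323).

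Tap2 had 1529, 1486 and 1814 normalized counts in sham mice 1, 2 and 3, compared with 1687, 1145 and 2519 in ON-CR mice 4, 5 and 6. The ON-CR mice lay on both sides of the sham range. The log2 fold change was 0.08 (SE 0.24, 95% confidence interval from -0.44 to 0.60, limma adjusted p = 0.910). Whether Tap1 and Tap2 differed from each other in their response was not tested.

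Tapbp (ENSMUSG00000024308.15, chr17:33915899-33929292, plus strand) encodes tapasin, which holds the empty class I molecule at the transporter. It had 5877, 5092 and 5772 normalized counts in sham mice 1, 2 and 3, against 6101, 4976 and 6975 in mice 4, 5 and 6 after ON-CR. These were the most even values of the 10 genes relative to their mean after ON-CR. The log2 fold change was 0.10 (SE 0.14, 95% confidence interval from -0.21 to 0.40, limma adjusted p = 0.789).

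Psmb8 (ENSMUSG00000024338.15, chr17:34197721-34201454, plus strand) and Psmb9 (ENSMUSG00000096727.3, chr17:34181987-34187764, minus strand) encode the inducible catalytic subunits that replace Psmb5 and Psmb6 when the immunoproteasome is built. Psmb8 had 836, 691 and 860 normalized counts in sham mice 1, 2 and 3, compared with 1441, 816 and 2499 in ON-CR mice 4, 5 and 6. Mouse 5 lay inside the narrow sham range and the other ON-CR mice above it. The log2 fold change was 0.85 (SE 0.32, 95% confidence interval from 0.15 to 1.56, limma adjusted p = 0.223).

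Psmb9 had 299, 227 and 344 normalized counts in sham mice 1, 2 and 3, against 404, 255 and 923 in mice 4, 5 and 6 after ON-CR. The same mice were high and low as for Psmb8. The log2 fold change was 0.67 (SE 0.38, limma adjusted p = 0.434). The exons of Psmb9 and Tap1 share 212 bases on opposite strands, and those of Psmb8 share 498 bases with the antisense gene Gm20496, so without strand information their reads cannot be told apart there.

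The ratio of an inducible subunit to the constitutive one it replaces does not depend on library scaling. Psmb8 per Psmb5 was 0.508, 0.382 and 0.560 in sham mice 1, 2 and 3, compared with 0.819, 0.454 and 1.42 in ON-CR mice 4, 5 and 6, a log2 difference of 0.76. Psmb9 per Psmb6 was 0.0718, 0.0595 and 0.104 in sham mice, and after ON-CR it was 0.116, 0.0703 and 0.236 in mice 4, 5 and 6, a log2 difference of 0.70. In both ratios mice 4 and 6 were above the sham mice and mouse 5 was among them. Psmb10 per Psmb7, the third such pair, was 0.799, 0.626 and 0.706 in sham mice, and after ON-CR it was 0.773, 0.778 and 1.07, a log2 difference of 0.29, with mouse 6 alone above the sham mice. Exact permutation p was 0.3 for each of the 3 ratios, and 0.3 after adjustment over the 3.

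**Figure D4:**
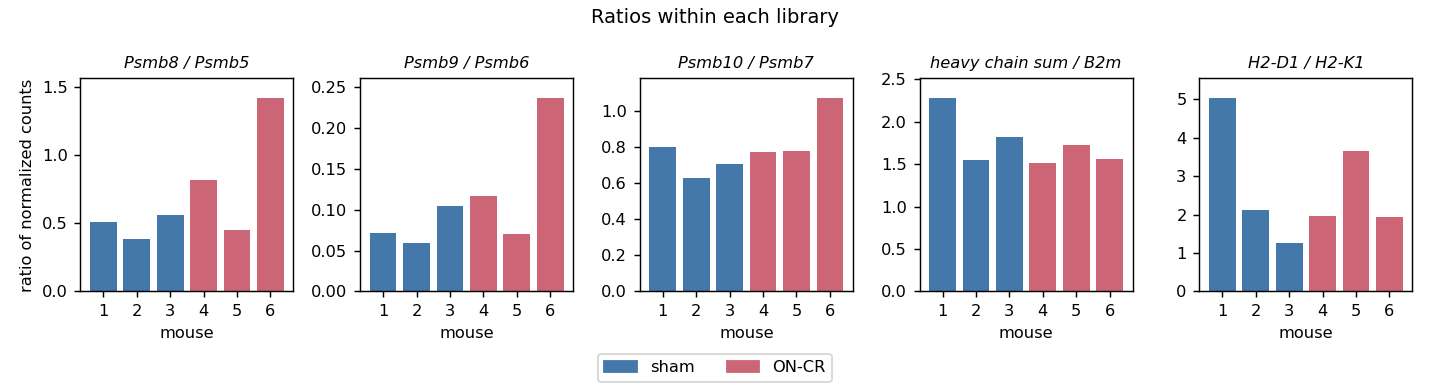
Ratios of normalized counts within each library (linear axes from 0) for the 3 pairs of inducible and constitutive proteasome subunits, the heavy chain sum over B2m, and H2-D1 over H2-K1, in sham (blue) and ON-CR (red) mice. Mouse 6 has the highest bar in the 3 proteasome panels, from 0.236 to 1.42, mouse 1 the highest in the last 2, and the groups overlap in all 5.

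Nlrc5 (ENSMUSG00000074151.13, chr8:94434356-94527272, plus strand) encodes the transactivator that is brought to class I promoters by the RFX, NF-Y and CREB/ATF factors bound there. It had 46.7, 29.2 and 62.9 normalized counts in sham mice 1, 2 and 3, against 96.7, 48.2 and 133 in mice 4, 5 and 6 after ON-CR. Mice 4 and 6 were above all sham mice and mouse 5 lay within the sham range. The means were 46.3 ± 16.9 and 92.6 ± 42.5 (SD, n = 3), and the log2 fold change was 0.94 (SE 0.41, 95% confidence interval from 0.03 to 1.84, limma adjusted p = 0.306).

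The promoters of 8 of the 10 genes were searched on both strands, in RefSeq sequences of 300 bases per start (GRCm38.p6), and those of Tap2 and Nlrc5 were not analysed here. The letters searched were GAAANNGAA, the core of the interferon regulatory factor element, TTCNNNGAA, the gamma-activated site of the interferon-gamma response, GGGATTCCC, the NF-kappaB site known from class I enhancers, and CCAAT, the NF-Y box. The windows below are shown because these are the elements through which interferon and NF-kappaB are known to act on the pathway, with the matched letters in capitals and each read along the gene's own strand. H2-T23 carries its element on the other strand. The windows lie at chr2:122147538-122147567 (plus strand), chr17:36032805-36032834 (minus strand), chr17:34198088-34198117 (plus strand), chr17:34000438-34000467 (minus strand) and chr17:35262914-35262943 (plus strand), in the order printed:
B2m, interferon regulatory factor element: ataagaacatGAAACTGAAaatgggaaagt
H2-T23, interferon regulatory factor element: tcctactgctTTCTCTTTCataaagacaca
Psmb8, gamma-activated site: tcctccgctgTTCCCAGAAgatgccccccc
H2-K1, NF-kappaB site: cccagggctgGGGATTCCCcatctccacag
H2-D1, NF-kappaB site: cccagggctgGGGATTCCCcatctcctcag

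The NF-kappaB letters were in the promoters of H2-K1 and H2-D1 and in 0.353% of all 32851 promoters. Their windows were identical at 29 of 30 bases, with the single difference A27T (H2-K1 first, counted from 1 at the 5′ end). The interferon regulatory factor element was in 2 of the 8 promoters and in 8.56% of all promoters, and the gamma-activated site was in 1 of 8 and in 8.30% of all. CCAAT was in 7 of 8, all but Psmb8, and in 37.4% of all. Tap1 and Psmb9, which start close together on opposite strands, hold the same copy of it, shown along the Tap1 strand (chr17:34187324-34187349):
Tap1, NF-Y box: gctcggctttCCAATcagcggctgcg
A match is a description of the letters and does not show that a factor was bound in these nerves. Other spellings of these elements were not searched, so a promoter without a match may still hold such an element.

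Of the wider pathway, 94 genes in 8 lists were examined, and 2 passed an adjusted p of 0.05, a share near the 2.1% of all genes tested that passed. Among 16 other class I and class I-like heavy chain genes in the table, none passed, 13 had fold changes above 0 and the median log2 fold change was 0.46. The most abundant, Fcgrt, the neonatal Fc receptor, had a log2 fold change of -0.17 (SE 0.12, limma adjusted p = 0.557), and H2-T22 one of 0.51 (SE 0.25, adjusted p = 0.371). H2-Q6 and H2-Q7, named here after their values were seen, had larger fold changes than any of the 10 genes.

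H2-Q6, a nonclassical heavy chain, had 156, 68.4 and 60.8 normalized counts in sham mice 1, 2 and 3, compared with 267, 174 and 709 in ON-CR mice 4, 5 and 6 (log2 fold change 1.88, SE 0.49, limma adjusted p = 0.0868). H2-Q7, which encodes a Qa-2 heavy chain, had 111, 119 and 153 in sham mice, and after ON-CR it had 293, 198 and 812 in mice 4, 5 and 6 (1.51, SE 0.42, adjusted p = 0.105). For both, every ON-CR mouse lay above every sham mouse, a pattern that 10.5% of all genes showed. H2-Q6 passed under array weights (adjusted p = 0.0408). Both passed without mouse 5 (adjusted p = 0.0198 and 0.0149), as did 3.32% of all genes. Neither passed without mouse 6 (limma adjusted p = 0.305 and 0.226).

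None of the 12 other peptide loading and trimming genes passed, and their median log2 fold change was -0.03. Pdia3, the thiol oxidoreductase of the loading complex, had -0.15 (SE 0.13, limma adjusted p = 0.632). Canx, the chaperone calnexin, had -0.12 (SE 0.10, adjusted p = 0.637), and it was slightly above 0 when counts were scaled to the total. None of the 5 other immunoproteasome and proteasome activator genes passed, with a median of 0.18. Pomp, a proteasome assembly factor, had 0.05 (adjusted p = 0.883), Psme2 0.18 (adjusted p = 0.683) and Psmb10 0.34 (adjusted p = 0.437). Psme1, named after its values were seen, had 0.56 (SE 0.18, adjusted p = 0.155). Every ON-CR mouse was above every sham mouse for it, as for 10.5% of all genes. Psme1 passed without mouse 5 (0.71, adjusted p = 0.0465), as did 3.32% of all genes. It did not pass without mouse 6 (0.36, adjusted p = 0.403).

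The 14 constitutive core subunits, which every cell uses, had a median log2 fold change of 0.08, and none passed. Psmb5 was at 0.10, Psmb7 at 0.05, and Psmb1 and Psmb6 were at -0.03 and turned positive under scaling to the total. Their per-mouse median differences from the sham mean stayed between -0.13 and 0.19, a span much smaller than that of the 10 class I genes.

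Of 16 interferon ligand, receptor and signalling genes in the table, 1 passed. Irf8, a factor of myeloid cells, had 404, 351 and 396 normalized counts in sham mice 1, 2 and 3, against 1384, 744 and 1332 in mice 4, 5 and 6 after ON-CR. It rose in each ON-CR mouse, by a log2 fold change of 1.53 (SE 0.22, limma adjusted p = 0.00733), although the adjusted p was 0.0902 without mouse 6, 0.0568 without sham mouse 2 and 0.161 in a fit without the mean-variance trend. The median log2 fold change of the list was 0.08. Interferon-gamma itself (Ifng) had 0 to 4 reads per library, at or near the floor of 3 reads, so no difference was detectable at this depth.

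Other interferon factors were named after their values were seen. Irf1, a direct inducer of class I promoters, had a log2 fold change of 0.57 (SE 0.26, limma adjusted p = 0.324), and Irf7 0.81 (SE 0.33, adjusted p = 0.262). None of the 12 factors that act at MHC promoters passed, with a median of 0.09. Rela, an NF-kappaB subunit, had -0.15 (adjusted p = 0.635) and Creb1 0.18 (adjusted p = 0.584).

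Of 10 immune receptors listed for their relation to class I recognition, 1 passed. Not all of them bind class I molecules, since Lag3 is known for binding class II and Lilrb4a, an inhibitory receptor of myeloid cells, is not an established class I receptor. Lilrb4a had 61.5, 29.4 and 70.5 normalized counts in sham mice 1, 2 and 3, against 207, 144 and 152 in mice 4, 5 and 6 after ON-CR. It rose by a log2 fold change of 1.70 (SE 0.33, limma adjusted p = 0.0303), and the call was lost when any mouse but mouse 5 was left out, with an adjusted p up to 0.176, and in a fit without the mean-variance trend (0.206). The median of the list was 0.56.

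The class II pathway, which presents peptides from outside the cell and is largely limited to professional antigen-presenting cells, was compared as a second arm of presentation. None of its 9 genes passed, and the median log2 fold change was 0.38. Cd74, the invariant chain, had 21941, 22548 and 33102 normalized counts in sham mice 1, 2 and 3, compared with 23797, 9626 and 81769 in ON-CR mice 4, 5 and 6. H2-Aa, a class II alpha chain, had 3945, 4176 and 6167 in sham mice, and after ON-CR it had 4478, 1859 and 15267 in mice 4, 5 and 6. For both genes mouse 6 was highest and mouse 5 lowest of all 6 mice, and the log2 fold changes were 0.06 (limma adjusted p = 0.974) and 0.11 (adjusted p = 0.953).

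Markers of immune cells moved along with some of these values. Of 10 microglia and macrophage markers, 3 rose: the lysosomal gene Cd68 (log2 fold change 1.80, limma adjusted p = 0.00128), the adaptor Tyrobp (1.26, adjusted p = 0.00636) and Aif1, which encodes Iba1 (1.22, adjusted p = 0.0260). Of all 25755 genes tested, 250 passed as higher. Cd68 passed without any 1 mouse, Tyrobp missed narrowly without sham mouse 2 (0.0529) or mouse 6 (0.0518), Aif1 passed only without mouse 5 among these fits, and none of the 3 passed in a fit without the mean-variance trend. Markers of resting microglia in the list had lower means after ON-CR and did not pass: the log2 fold change of Tmem119 was -0.27 (limma adjusted p = 0.351), with every ON-CR mouse below every sham mouse, and that of P2ry12 was -0.35 (adjusted p = 0.364). The summed level of the 10 markers was 15199 to 19846 in sham mice, and 29721, 20137 and 30381 in ON-CR mice 4, 5 and 6. No marker of the list was at 0 in any mouse. The median log2 difference from the sham mean over this list was 0.95 in mouse 4, 0.31 in mouse 5 and 0.88 in mouse 6. Mice 4 and 6 were near each other by both measures, with mouse 4 higher by the median and mouse 6 higher by the sum. For each of the 10 class I genes mouse 6 was above mouse 4.

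Lymphocyte markers set mouse 6 apart. None of 8 T cell markers passed, and their summed level was 225 to 650 in sham mice, and after ON-CR it was 487, 202 and 1391 in mice 4, 5 and 6. None of 5 NK cell markers passed, with sums of 65.5 to 215 in sham mice and 221, 52.4 and 401 in mice 4, 5 and 6. None of 6 B and plasma cell markers passed, with sums of 94.7 to 503 in sham mice and 239, 101.1 and 14347 in mice 4, 5 and 6, and Ms4a1 was at 0 in mouse 4. By these sums mouse 5 was the lowest and mouse 6 the highest ON-CR mouse, as for the median of the class I genes. The summed microglia and macrophage markers ranked the ON-CR mice in the same order. This order covers the ON-CR mice alone. Sham mouse 3 had sums of 650 for T cells and 503 for B and plasma cells, both above those of mouse 4. Its NK cell sum of 215 was just below the 221 of mouse 4. The class I median was nonetheless 0.12 in sham mouse 3, against 0.65 in mouse 4. The part of any of these cells in the class I values was not tested.

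Other cell types gave other patterns. Of 7 oligodendrocyte markers, 6 fell, as did 290 of all 25755 genes tested. The median log2 fold change of the 7 was -0.87, with sums of 1280060 to 1834330 in sham mice and 624206 to 737677 after ON-CR. The sum over 6 astrocyte markers was 191199 to 236355 in sham mice and 258311 to 292417 after ON-CR, and none passed. The markers differed in direction, with log2 fold changes of 0.64 for Gfap (limma adjusted p = 0.0859), the most abundant, -0.62 for Aldoc (adjusted p = 0.0950) and -0.30 for Gja1 (adjusted p = 0.324). Neither the 7 endothelial markers, with sums of 3016 to 3669 and 2978 to 3822, nor the 6 gland and airway markers had a member that passed. The gland and airway sum was 267, 166 and 8388 in sham mice 1, 2 and 3, against 38.9, 5561 and 6304 in mice 4, 5 and 6 after ON-CR, and Bpifa1 was at 0 in mice 2 and 4. Mice 5 and 6, the lowest and highest ON-CR mice by the median of the class I genes, were both high for this list.

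**Figure D5:**
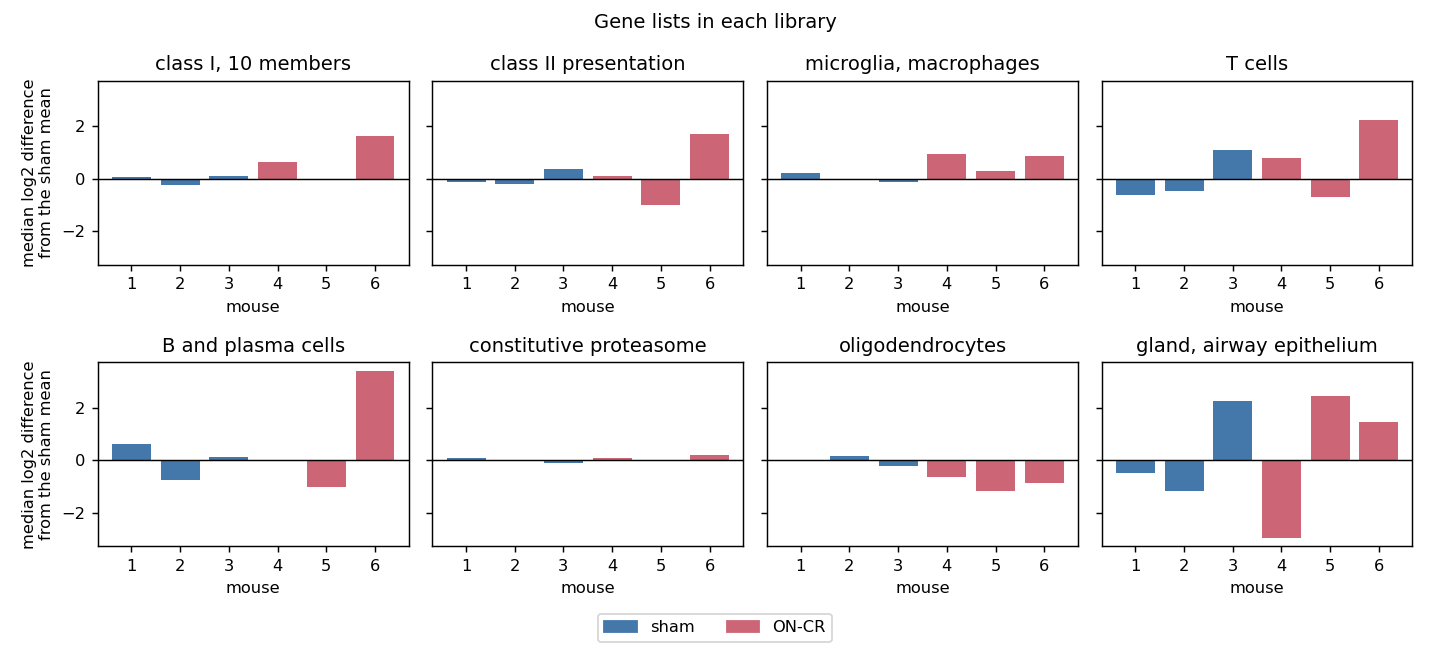
Median over the genes of a list of the log2 difference from the sham mean, for each mouse (sham blue, ON-CR red), on a shared linear axis. The 10 class I genes stand at 0.65, -0.01 and 1.61 in mice 4, 5 and 6. Among the ON-CR mice, the class II, T cell and B and plasma cell lists also rank mouse 6 highest and mouse 5 lowest. In these lists sham mouse 3 stands above mouse 4, unlike in the class I genes. The oligodendrocyte list is below 0 in all ON-CR mice, and the constitutive proteasome stays near 0.

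The genes most like the 10 across mice were found by Pearson's r between their log2 values and the mean z-score of the 10 genes, over 14426 genes with a mean of at least 50 and n = 6 mice that share the groups and the high mouse 6. Irgm1, an interferon-inducible GTPase, was first with r = 0.99, at 1387, 1017 and 1357 normalized counts in sham mice 1, 2 and 3, compared with 1793, 1112 and 3945 in ON-CR mice 4, 5 and 6. Gm44027, Tmem167, Plp2 and Rps15a followed with r = 0.99 each, and none of the 5 genes passed the test. Irgm1 had a log2 fold change of 0.68 (SE 0.36, limma adjusted p = 0.402). The others had smaller fold changes, from 0.10 for Gm44027 to 0.33 for Rps15a, so a like order of the mice did not mean a like size.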

How the data were processed

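RNA was isolated from optic nerves of perfused mice, and libraries were made from low RNA input with the SMARTer Ultra Low RNA kit, which does not mark strand. The authors aligned and counted the reads with DRAGEN against Ensembl release 101, assigned them to mm10 Ensembl release 102 genes and applied median normalization in Partek Flow 10.0. What they deposited is therefore a normalized signal per gene, and not raw counts. The study's test for raw counts was not run for this reason.

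Values were tested as log2(value + 1), a scale that understates changes of low genes, with limma 3.58.1 in R 4.3.3, a trend of the variance on the mean, and Benjamini-Hochberg adjusted p-values over all 25755 genes, without a filter on low values. Sums and ratios were tested with two-sided exact permutation tests, whose smallest p for 3 against 3 mice is 0.1. On simulated data of 25755 genes, 200 of 200 genes changed 4-fold were called, with 5 false calls. The simulated spread between mice was set beforehand and not taken from these data. The class I genes listed at the outset had smaller changes, with log2 fold changes of at most 0.94. Power for changes of that size, at the spread seen between these mice, was not tested. Estimated reads were obtained by dividing by the value of 1 read. Between 66.9% and 69.4% of values were then whole within 0.02, so no count test was run on them. Floors cover counting error only.

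Positions and exon lengths are from GENCODE M21 (GRCm38), matched by symbol for 97.3% of genes, and promoters from RefSeq. The 10 genes, the lists and the tests were chosen with earlier results of these data known. Named were the 10 genes, in each list those that passed or otherwise the 2 most abundant, the proteasome partners, Xist and Ddx3y, and the 5 most alike genes. H2-Q4, H2-Q6, H2-Q7, Psme1, Irf1, Irf7, Ifng, Jchain, Bpifa1, Ms4a1, Lag3, Tmem119, P2ry12, Aldoc, Gja1 and the copies and overlapping genes were added once values had been seen. Some results for genes of these lists are not given. Alternatives tried were 3 pseudocounts, a filter on low values, 4 scalings, a robust fit, a fit without the trend, and array weights. Immunoglobulin and X- and Y-linked genes were also removed, with the remaining values scaled to the total. Further fits each lacked 1 mouse.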

Additional observations from a re-analysis of the deposited data

How the results depend on the processing

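The count of class I genes passing an adjusted p of 0.05 was 0 under every alternative tried except without mouse 5, and its range when each mouse was left out was 0 to 4. The median log2 fold change of the 10 genes stayed between 0.36 and 1.14 over all alternatives. Scaling to the total moved the median of all genes from 0.03 to 0.15 and the median of the 10 genes to 0.89, and raised the count of class I genes without overlap between groups from 1 (B2m) to 2 (B2m and Psmb8), while the share of all genes with every ON-CR value above every sham value went from 10.5% to 16.6%. It moved the split of all genes passing from 250 higher and 290 lower to 421 higher and 195 lower. Removal of immunoglobulin and sex-linked genes, which included the same scaling to the total, gave 430 higher and 203 lower. Removal without this scaling was not tested. All genes passing numbered 39 higher and 28 lower without mouse 6, and 5 higher and 2 lower without the mean-variance trend.

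The count of other pathway genes passing, 2, was 0 without the trend and 0 to 5 when each mouse was left out. Some genes with fold changes near 0 changed sign. Canx, Psmb1 and Psmb6 did so under scaling to the total, quantile normalization, and removal of immunoglobulin and sex-linked genes, which included scaling to the total. In that order, the log2 fold change was 0.0090, 0.033 and 0.0069 for Canx, 0.099, 0.056 and 0.097 for Psmb1, and 0.0996, 0.070 and 0.0974 for Psmb6. When each mouse was left out, the ranges were -0.21 to 0.36 for Tap2, -0.015 to 0.23 for Tapbp, -0.030 to 0.11 for Pomp, -0.035 to 0.35 for Psme2, -0.10 to 0.018 for Psmb1, -0.12 to 0.048 for Psmb6, -0.0098 to 0.11 for Psmb7, -0.75 to 0.80 for Cd74 and -0.69 to 0.83 for H2-Aa. The cause was not tested. Over all values recomputed for counts, sums, ratios and single genes, 698 were classed as the same. Of the rest, 8 newly passed the threshold, 19 no longer passed it, 23 changed sign and 9 counts moved by over 1.5 times. For single genes, the same meant an unchanged direction and side of the threshold. Counts had to stay within 1.5 times, and the median of the 10 genes within 0.48. Sums and ratios could not pass the threshold at any exact p, so for them it meant the sign alone. The heavy chain sum, its ratio to B2m and the 3 proteasome ratios kept their sign wherever they were recomputed. That was done with each mouse left out and, for the sum alone, also under 3 scalings. So few mice allow no exact p below 0.1. No paired analysis was possible because the mice of the groups carry different numbers. With 3 mice a group and depth of 17414091 to 23621006 reads, the spread between mice, and not counting error, set the precision for the 10 genes.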
